A study of Mus musculus with 6 samples.

Results

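Long retained introns that were listed in some but not all libraries of mouse nucleus accumbens were described here, one intron at a time. A single retained intron is an intron that one assembled transcript splices out between a pair of exons and another assembled transcript of the same gene keeps inside one exon, with the same outer exon ends in both. The introns were chosen by event class, by a length limit set between 1854 and 1862 nucleotides (the longest intron below it and the shortest above it), and by being listed in at least 2 and at most 5 of the 6 libraries, and 1410 of the 14320 single retained introns of the series (9.85%) met these conditions. They lay in 912 of the 16154 genes with any listed event (5.65%). They are called long variable introns in what follows.

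The libraries held total RNA of the nucleus accumbens, a ventral striatal region, of adult male C57BL/6N mice with no transgene. All mice went through conditioned place preference training, in which an animal learns to link a chamber with a drug. The saline group (3 libraries) received saline injections and the morphine group (3 libraries) received morphine injections, morphine being a µ-opioid receptor agonist. The sources used here differ on whether a library is the tissue of 1 mouse or a pool, so a p-value here measures only the spread between these libraries. Each library came as a list of splicing events without read counts or levels, so the depth behind a single listing is unknown. An intron was either listed or not listed in a library, and an intron that was not listed may still have been retained below what assembly could reach.

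Intron retention leaves an intron in a polyadenylated or nascent transcript. Such transcripts are often held in the nucleus or broken down by nonsense-mediated decay when the intron carries a stop codon in frame, and in neurons some wait in the nucleus and are spliced on stimulation. In total RNA an unspliced intron can also be part of a transcript still being made. Retained introns are typically short and rich in G and C, which makes long ones the less usual kind.

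The sequences at the ends of an intron show what the spliceosome reads, and they could be read for those long variable introns that lie whole inside an annotated exon of another transcript. There were 58 of these (4.11%), and for 49 of the 58 the covering transcript that was read carried the annotation type retained intron. Some of these introns share a covering transcript or a splice site, and each was counted separately. The 5′ and 3′ ends of 8 of the 13 such introns listed in 5 of 6 libraries are shown first, because these were the long variable introns closest to regular listing that also had sequence. Each line gives 3 exon bases and 20 intron bases at the 5′ splice site or 20 intron bases and 3 exon bases at the 3′ splice site, 5′ to 3′, with the first and last intron dinucleotides in capitals. Both Cbx7 introns start at the same 5′ splice site and end at different 3′ splice sites.
Ints6l, chrX:56493134-56496515, plus strand, 5′ end: ataGTatgtattttttgtgtgtg
Ints6l, 3′ end: attctgtacttcccttttAGacc
Ubn2, chr6:38487151-38490383, plus strand, 5′ end: aagGTaagagtccagcaaatcta
Ubn2, 3′ end: tataatgctacttatgctAGgaa
Tnrc6c, chr11:117749818-117752976, plus strand, 5′ end: ttgGTgagtcttctgtgggcttc
Tnrc6c, 3′ end: aacggtgtctgtgcttttAGctg
Daam2, chr17:49473393-49476447, minus strand, 5′ end: cagGTaagatttggaccctctgg
Daam2, 3′ end: ttgtaactcatcatttgcAGaaa
Cbx7, chr15:79918826-79921371, minus strand, 5′ end: cagGTaaccactgcctctgagcc
Cbx7, 3′ end of the 2546-nucleotide intron: gacgggagctctccctgcAGgag
Cbx7, chr15:79919105-79921371, 3′ end of the 2267-nucleotide intron: gccctggcttgcccctgcAGcgg
Ythdc1, chr5:86828122-86830553, plus strand, 5′ end: aagGTtagaaacgttctttggac
Ythdc1, 3′ end: aatgtgtctaatttgtgtAGgcg
Clasrp, chr7:19592078-19594472, minus strand, 5′ end: gcaGTgagtggcgggtcggggtg
Clasrp, 3′ end: cctgtgcctctccttgccAGtct

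Positions are on GRCm38, and the sequences come from the GENCODE M21 transcripts. Ubn2 (a histone H3.3 chaperone subunit), Cbx7 (a Polycomb protein), Tnrc6c (a partner of Argonaute in miRNA silencing), Ythdc1 (a nuclear reader of N6-methyladenosine) and Clasrp (an SR-related splicing protein) act on chromatin or RNA. The introns shown were chosen after their values were seen, so no trend in gene function is read from them. Of the 58 introns, 57 began with GT and ended with AG, and 27 had GTAAG or GTGAG at the 5′ splice site. The exception was an intron of Ift80, an intraflagellar transport gene, with AT at both ends at its listed position. The bases AT repeat at both of its junctions, so the exact position is ambiguous. Placed slightly upstream, the intron would give the same spliced product, begin with AT and end with AC. GC content of the 58 introns ran from 32.2% to 56.3% with a median of 41.8%.

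For introns that no annotated exon covers, only the spliced product could be read. The exon junctions of 6 introns listed in all libraries of one group and in none of the other are given next, because these are the introns in which the groups differed most in listing. Each line shows 12 bases of the upstream exon and 12 of the downstream exon, with the 2 bases on each side of the intron in capitals. Intron numbers, here and below, are those of 1 annotated transcript of the gene. For Dmd that transcript has 16 introns, and other transcripts of a gene can number the same intron differently.
Sik2, intron 8 of 15, chr9:50907572-50913383, minus strand, saline: acagttgccaAGGCacaaactgtg
Gria2, intron 11 of 15, chr3:80702657-80706887, minus strand, saline: tatttcgccaAGATctctctctgg
Cacna1a, intron 11 of 46, chr8:84544784-84548508, plus strand, saline: ccgacttcctCTACtatgcagaat
Senp1, intron 4 of 18, chr15:98076710-98082242, minus strand, morphine: attatcactcAGATaacccttcct
Dmd, intron 9 of 16, chrX:85144166-85149129, plus strand, morphine: caacatggaaACGCctgcctcgtc
Braf, intron 8 of 17, chr6:39648487-39651604, minus strand, morphine: gtgaatatcgATGAtttgattaga

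Most long variable introns lay in coding parts of protein-coding genes, and most were listed in 2 libraries. Their lengths ran from 1862 to 28860 nucleotides, with a median of 3176.5 and quartiles of 2395 and 4653. The annotation held 1299 of them exactly (92.1%). Coding introns made up 1250, 17 lay in a 5′ UTR, 10 in a 3′ UTR, 22 in noncoding transcripts and 111 matched no annotated intron. Only 9 were listed on the strand opposite to their gene. Listing in 2 libraries was the most common state, with 748 introns (53.0%), followed by 360 in 3, 193 in 4 and 109 in 5. Median length was 3121 nucleotides for those in 2 libraries, 3272 in 3, 3093 in 4 and 3405 in 5, with no order by number of libraries. As the rule used both length and the number of libraries, these values are descriptions.

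The assembled exon that kept the intron holds the whole intron and both flanking exons, so the length limit makes it long. Over 1710 combinations of intron and flanking ends, its median length was 3920 nucleotides and its maximum 32046. The medians were 135 nucleotides for the upstream and 129 for the downstream exon of the spliced form. A single combination of flanking ends was listed for 1146 introns (81.3%). The length was a multiple of 3 for 448 introns (31.8%). An annotated exon of another transcript lay inside 321 (22.8%), so for these the spliced form can also skip an exon.

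Among the longest, Gria4, an AMPA receptor subunit, held the longest, of 28860 nucleotides (intron 14 of 16, chr9:4427145-4456004), listed in saline 1 and morphine 1. A second Gria4 intron of 23117 nucleotides (chr9:4432888-4456004) used the same 5′ splice site and was listed in all libraries except morphine 1. Another Gria4 intron, of 8318 nucleotides (chr9:4424455-4432772), was listed in saline 2, saline 3 and morphine 2. Cnot4, an E3 ligase of the CCR4-NOT complex, held an intron of 26721 nucleotides (intron 10 of 11) that was listed in saline 1, saline 2 and morphine 1. The 21958-nucleotide intron 2 of Sec24b, a cargo adaptor of COPII vesicles, was listed in saline 2, saline 3 and morphine 1. The fifth was an intron of 20603 nucleotides in 8030462N17Rik, listed in saline 1, saline 2 and morphine 1. All of these were coding introns, and every one was listed in both groups.

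At the length limit, the 3 shortest introns inside it were those of B4galnt1 (1862 nucleotides, 4 libraries), Hook1 (1863 nucleotides, 5 libraries) and Per3 (1865 nucleotides, 4 libraries). Just outside it were introns of Yrdc (1854 nucleotides, 3 libraries), Btaf1 (1851 nucleotides, 2 libraries) and Snapc4 (1850 nucleotides, 5 libraries).

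The first comparison asked whether morphine and saline libraries held different numbers of long variable introns. Listed were 742 in saline 1, 580 in saline 2 and 479 in saline 3, and 793 in morphine 1, 677 in morphine 2 and 622 in morphine 3. The groups overlapped, since saline 1 lay above 2 of the morphine libraries. The means were 600.3 ± 132.7 (SD, n = 3) in saline and 697.3 ± 87.3 (SD, n = 3) in morphine, a difference of 97.0 or 16.2% (two-sided exact permutation test, p = 0.4, smallest possible 0.1). Short variable introns, which met the same listing condition below the length limit, gave 1610 ± 229 and 1875 ± 203 (exact p = 0.3). All single retained introns gave 3778 ± 766 and 4611 ± 843 (exact p = 0.3). Per 100 single retained introns of the same library, the long variable introns were fewer in morphine, with 15.2 ± 0.834 against 15.9 ± 1.57 in saline, a difference of -0.668 (exact permutation p = 0.5). As a share of single retained introns, those above the length limit made up 25.5% ± 2.04 in saline and 25.7% ± 1.16 in morphine, a difference of 0.108 percentage points (exact p = 1.0). No group difference beyond the spread between libraries was detected, and the exact permutation test of 3 against 3 libraries cannot fall below the threshold of 0.05.

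**Figure D1:**
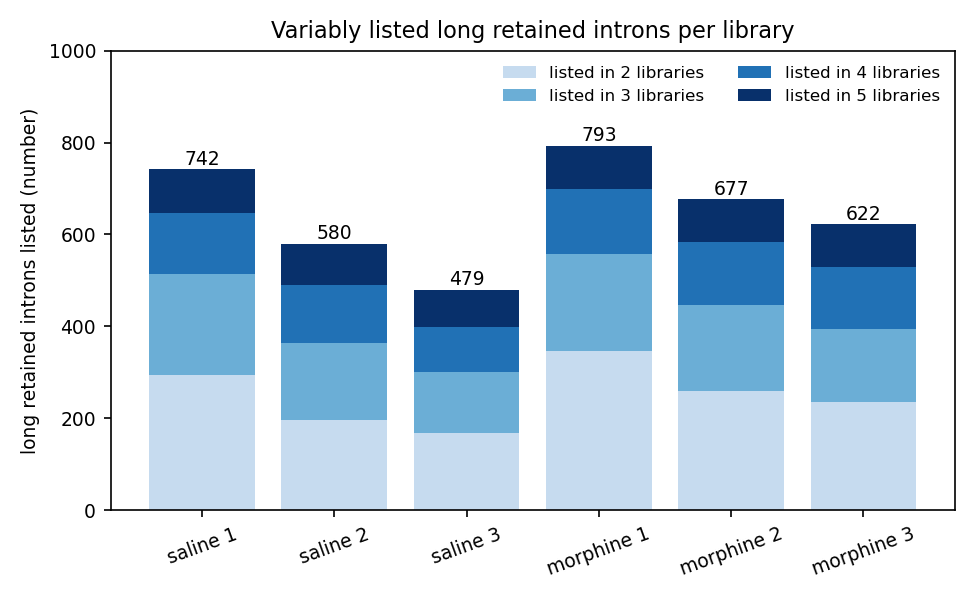
Number of long variable introns listed in each of the 6 libraries (y axis, count), each bar divided by the number of libraries in which the intron was listed. The saline bars reach 742, 580 and 479 and the morphine bars 793, 677 and 622, so the groups overlap, and introns listed in 2 libraries form the lowest and largest segment of every bar.

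No relation between the number listed and depth was detected over these libraries. Relative depth, taken from the ratio of counts to FPKM in the deposited lncRNA table with saline 1 set to 1.0, was highest in morphine 2 at 1.59. The number of long variable introns gave Pearson r = -0.24 (exact permutation p = 0.644) and Spearman rho = -0.31 (exact permutation p = 0.564) with relative depth over the 6 libraries. Without saline 1 and morphine 2, r was -0.36. With the number of genes listed in a library, r was -0.39 (exact permutation p = 0.428) and rho -0.31 (exact permutation p = 0.564), and without the same libraries r was -0.56. These were the only 2 relations computed, and Benjamini-Hochberg adjustment gave 0.644 for both r values and 0.564 for both rho values. The deepest library, morphine 2, did not hold the most of these introns. Depth here rests on 91 values of a table limited to transcripts the authors called changed.

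Counted intron by intron, more morphine than saline libraries listed 487 long variable introns (34.5%), more saline libraries listed 332 (23.5%), and 591 (41.9%) were listed equally. Over variable retained introns of any length the shares were 34.8% and 23.5%, so the shares of the long ones lay at the background. Both groups listed 1100 of them (78.0%), 205 (14.5%) were listed in morphine libraries alone and 105 (7.45%) in saline libraries alone. Over variable retained introns of any length these shares were 15.3% and 8.57%. Of the 748 introns listed in 2 libraries, 468 were shared by 1 library of each group, 186 by 2 morphine libraries and 94 by 2 saline libraries. The matching shares for introns of any length were not computed, so no group difference is read from these pairs. The pair that shared most long variable introns was saline 1 and morphine 1, with 385, across the groups. Among the 109 introns missing from 1 library only, the missing library was saline 3 for 29 and saline 1 or morphine 1 for 14 each.

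All 3 morphine libraries and no saline library listed 19 long variable introns (1.35%, against 1.63% for variable retained introns of any length). All 3 saline libraries and no morphine library listed 11 (0.780%, against 0.644%). These shares lay near the background, and no intron-wise difference between the groups is read from them. They belonged to 18 and 11 genes, and the median length was 3118 nucleotides for the morphine introns and 3725 for the saline introns.

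Among the saline introns, Gria2 encodes the AMPA receptor subunit that sets calcium permeability, and its listed intron, of 4231 nucleotides, was 1 of 12 long variable introns in genes of glutamate receptors and scaffolds. Cacna1a encodes the pore of P/Q-type calcium channels, and the listed intron was 3725 nucleotides long. Tet2 (2799 nucleotides, intron 8 of 11, chr3:133473686-133476484) and Tet3 (2897 nucleotides, intron 6 of 11, chr6:83376975-83379871) encode dioxygenases that oxidise 5-methylcytosine. The longest were in Sik2 (5812 nucleotides), a salt-inducible kinase, and Fam149b (5122 nucleotides). Rab11fip3 (4210 nucleotides), an effector of Rab11, and Vps54 (3913 nucleotides), a subunit of the GARP tethering complex, belong to membrane traffic. Phf20l1 (2159 nucleotides), a reader of methylated lysine, and Gse1 (2027 nucleotides) were the shortest of the 10 longest.

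Among the morphine introns, Senp1 (5533 nucleotides) encodes a SUMO protease, Dmd (4964 nucleotides) dystrophin and Kif3a (4613 nucleotides) a kinesin-2 motor subunit. Hemk1 (4599 nucleotides) encodes a methyltransferase of translation release factors, and Stk38 (3977 nucleotides) an NDR family kinase. Psme4 (3854 nucleotides) encodes a proteasome activator, Ctnnal1 (3718 nucleotides) an α-catenin relative and Spcs2 (3464 nucleotides) a signal peptidase subunit. Braf (3118 nucleotides) encodes a kinase of the MAP kinase cascade. The longest, of 9677 nucleotides, was in ENSMUSG00000098639 on an assembly patch, where no annotated intron could be matched. The introns of Kif3a and Psme4 also matched no annotated intron.

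**Figure D2:**
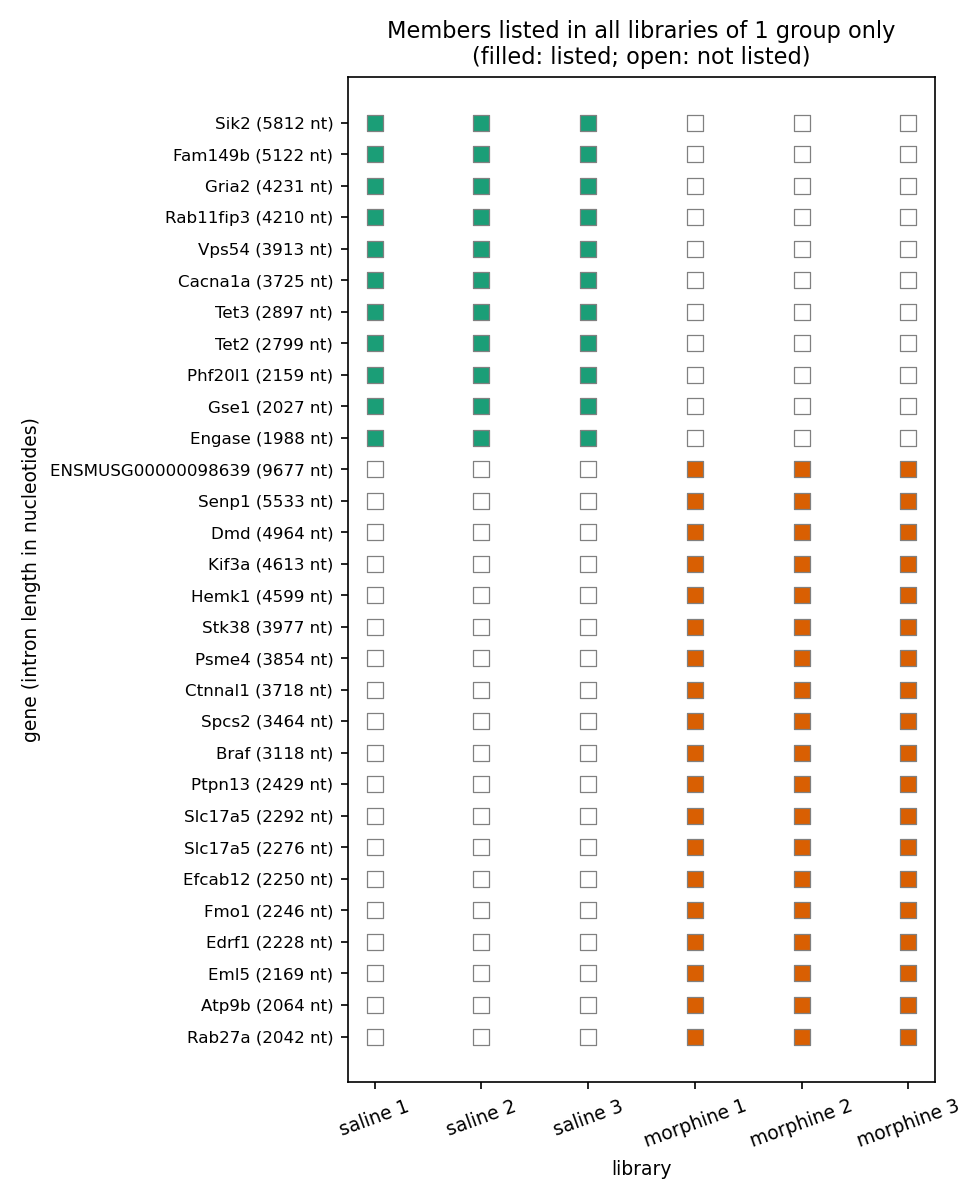
The 30 long variable introns listed in all 3 libraries of one group and in none of the other, by gene and intron length (rows) and library (columns); filled squares mark listed introns and open squares introns not listed. The upper 11 rows are the saline introns, from Sik2 (5812 nucleotides) to Engase, and the lower 19 the morphine introns, from 9677 nucleotides down to Rab27a.

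Part of this group-wise pattern depended on the exact form of the event. When the same intron was also counted where it was kept with other outer exon ends or as one of a run of neighbouring retained introns, 13 of the 19 morphine introns stayed in 3 libraries and 3 were found in all 6 (Hemk1, Stk38 and Eml5). Of the 11 saline introns, 5 stayed in 3 libraries. In any form the Sik2 and Tet2 introns were found in 5 libraries, and the Gria2, Tet3, Vps54 and Fam149b introns in 4. Those of Senp1, Kif3a, Ctnnal1, Braf, Cacna1a and Rab11fip3 were found in the same 3 libraries in any form.

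The same held for the long variable introns as a whole. Over the 6 libraries there were 3893 listings and 4567 cases of an intron not listed. In 154 of these 4567 cases (3.37%) the library listed the same intron with other outer ends, and in 524 (11.5%) it listed it within a run. In 2012 (44.1%) it listed another single intron of the gene as retained, in 1871 (40.97%) it listed other events of the gene but no single retained intron, and in 6 (0.131%) the gene had no listed event. The shares for short variable introns were 2.94%, 14.0%, 43.0%, 39.6% and 0.439% in the same order.

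**Figure D3:**
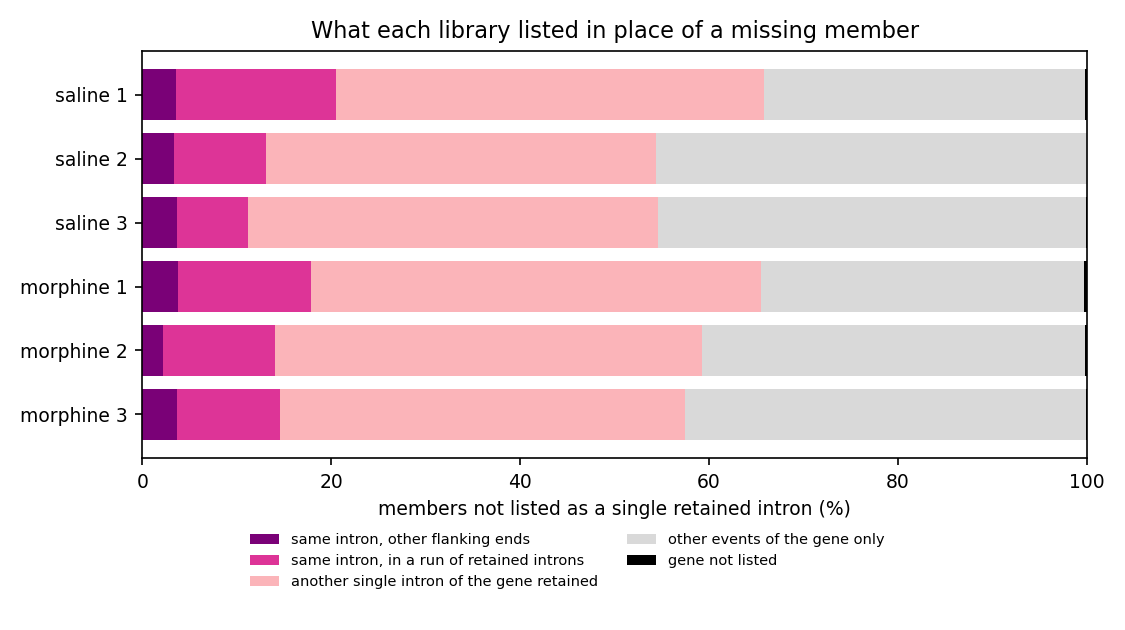
What each library listed where a long variable intron was not listed as a single retained intron, as a percent of such introns per library (x axis), for the 6 libraries (rows). Over all libraries the same intron in another form made up 3.37% and 11.5%, another retained intron of the gene 44.1% and other events only 40.97%, and the gene was absent in 0.131%.

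In any form, 441 long variable introns (31.3%) gained at least 1 library and 96 (6.81%) reached all 6. The numbers per library rose to 879, 689 and 583 in saline and 903, 780 and 737 in morphine. The group difference was then 89.7 introns or 12.5% (exact permutation p = 0.4).

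Transcript ends inside these introns were also read from the lists. A transcription start site was listed inside 0.402% ± 0.136 (SD over 6 libraries) of long variable introns where the intron was listed as retained, and inside 4.79% ± 1.07 where it was not. For transcript termination sites the values were 0.763% ± 0.444 and 3.64% ± 0.390. The difference was negative in 6 of 6 libraries for both kinds of end. For short variable introns the differences were -1.13 percentage points for start sites and -0.647 for termination sites. Listed ends and retained introns are drawn from the same assembled transcripts as the rule, so these values are given without a test.

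The next comparison asked how the long variable introns differed from other long introns of the same genes. For 1283 annotated long variable introns the gene had annotated introns of the same minimum length that no library listed as a single retained intron, 8710 in all. Because listed against never listed is the contrast of the rule, and the libraries share most of their introns and comparison introns, the values are given without a test. The long variable introns were shorter, with a median of 3165 ± 102 nucleotides (SD over 6 libraries) against 4824 ± 46.4, a difference of -1660 that grew to -2763 at a length minimum of 3000. They lay further downstream, at 61.9% ± 0.813 of the gene from its 5′ end against 51.3% ± 0.349. First introns made up 10.9% ± 0.749 against 31.2% ± 0.427 and last introns 13.1% ± 0.484 against 23.8% ± 0.532. Coding introns made up 95.9% ± 0.717 against 78.9% ± 0.723. An annotated exon covered 5.23% ± 0.475 against 0.950% ± 0.126, a difference of 4.28 percentage points that was 1.70 at a length minimum of 3000. Each of these 6 differences had the same sign in 6 of 6 libraries. An alternative that was not planned kept only comparison introns with no annotated exon inside. The differences were then smaller for length (-956 nucleotides), first introns (-17.3 percentage points), coding introns (12.9) and position (8.97). They were larger for last introns (-12.6) and nearly unchanged for annotation cover (4.30).

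**Figure D4:**
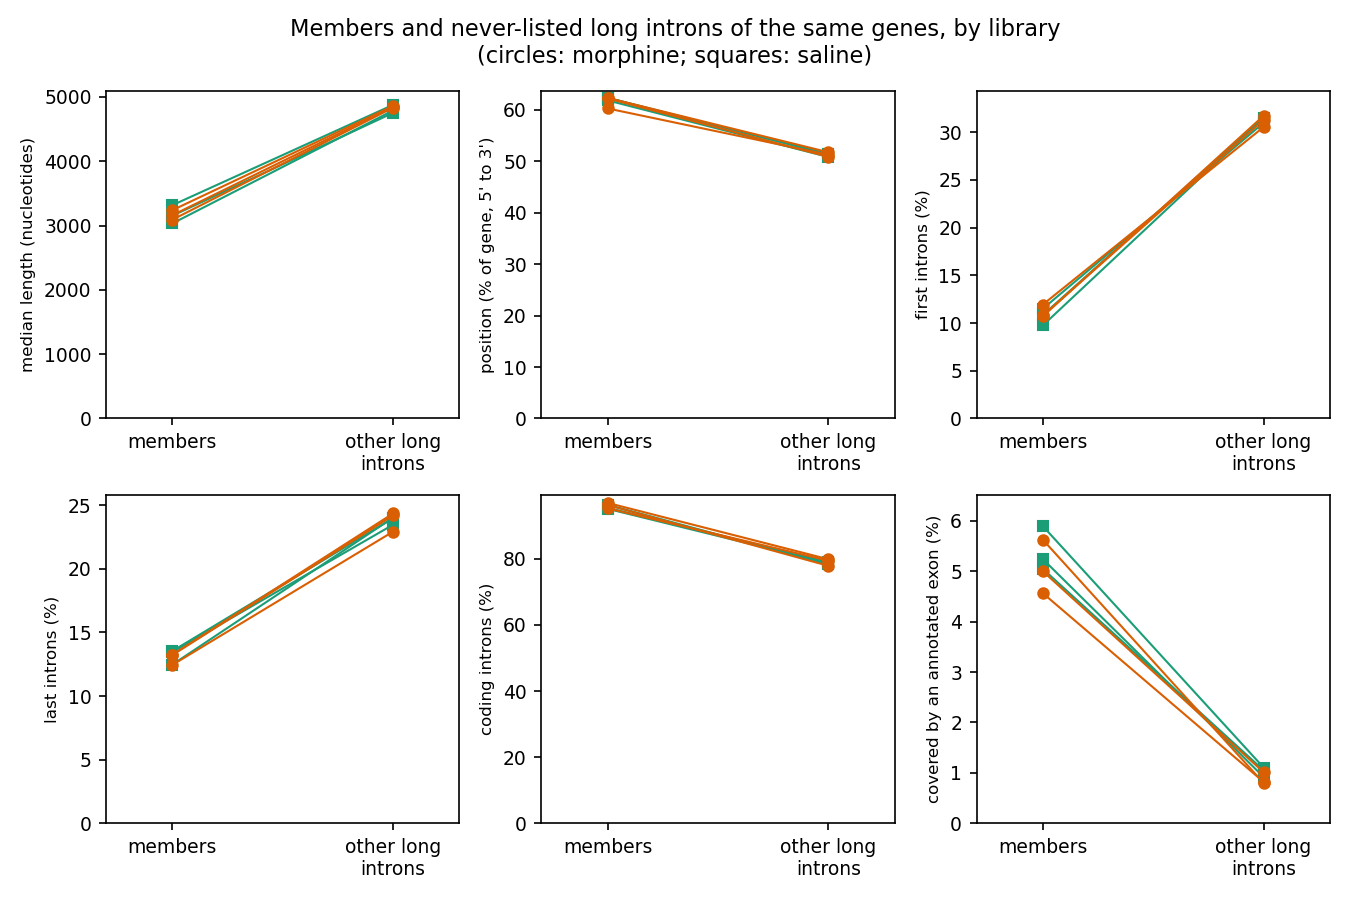
Features of the long variable introns (left of each panel) and of never-listed long introns of the same genes (right) in the 6 libraries, each line 1 library (circles morphine, squares saline); the y axes give nucleotides for length and percent for the other 5 features, all starting at 0. In every library the listed introns were shorter, less often first or last, more often coding and more often covered by an annotated exon, and they lay further downstream.

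The requirement of equal outer exon ends bears on the first and last introns, whose outer exons end at variable transcript starts and ends. Of 3187 annotated introns over the length limit that any library listed with equal outer ends, 10.9% were first and 14.3% last introns. Of 1083 listed with differing outer ends, 16.6% were first and 23.1% last. How much of the shortage of first and last introns came from this requirement was not tested.

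Against short variable introns, the largest difference was in annotation cover. An annotated exon covered 5.05% ± 0.556 (SD over 6 libraries) of long and 30.7% ± 1.59 of short variable introns, a difference of -25.6 percentage points. An exon that covers an intron must be longer than the intron, so this share depends on the length that the rule used. The share at an annotated intron was 92.5% ± 1.38 against 94.5% ± 0.499, and that in coding parts 88.7% ± 1.55 against 90.6% ± 0.710. Last introns made up 12.1% ± 0.450 against 15.1% ± 0.550 and first introns 10.2% ± 0.684 against 12.2% ± 0.758. The median position was 66.4% ± 0.863 of the gene against 64.8% ± 0.746. All 6 differences had one sign in 6 of 6 libraries (two-sided exact sign-flip permutation test, p = 0.03125, the smallest possible, adjusted p = 0.0365). Every intron was listed in at least 2 libraries, so the libraries are not independent and this p is too small. No feature is called different from it, and the other p-values of this comparison share the limit. The difference in position fell to 0.43 percentage points at a length minimum of 3000 and to 0.36 with means in place of medians. Its adjusted p was then above the threshold. That in the share at an annotated intron went from -1.98 to -1.91 percentage points without events on the opposite strand (exact sign-flip permutation, adjusted p = 0.0729) and to -4.03 at a length minimum of 3000 (adjusted p = 0.0438, exact sign-flip permutation). The share on the opposite strand was 0.475% ± 0.418 against 0.385% ± 0.122 (exact sign-flip permutation p = 0.469).

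Annotation cover also varied with the number of libraries. It was 2.81% for long variable introns in 2 libraries, 2.5% in 3, 7.77% in 4 and 11.9% in 5. Outside the rule, it was 2.35% for 2088 long introns listed in 1 library and 12.2% for the 82 listed in all 6. Of short introns listed in all 6 libraries, 65.6% were covered.

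Long variable introns were often grouped in genes. Among the 912 genes, 623 had 1, 187 had 2, 54 had 3 and 48 had 4 or more, so 787 introns (55.8%) lay in a gene with at least 1 other. Another of these introns used the same 5′ splice site for 167 of them and the same 3′ splice site for 142, and the 1410 introns came to 1245 loci that did not overlap. There were 139 pairs of directly neighbouring introns, made up of 200 introns. Introns of a gene thus share transcripts and sequence, and are not independent.

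Eml5, a microtubule-associated protein gene (chr12:98786805-98901484), held the most, with 14 introns of 1887 to 6018 nucleotides. Its 6 libraries listed 8, 10 and 2 of them in saline and 9, 8 and 5 in morphine. R3hdm1, which encodes an R3H domain protein (chr1:128103301-128237736), held 10, with 5, 4 and 3 listed in saline and 3, 1 and 8 in morphine. The spread within a group was wide for both genes, from 2 to 10 in saline for Eml5 and from 1 to 8 in morphine for R3hdm1.

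Wnk2, a kinase that regulates cation-chloride transport (chr13:49036303-49148014), held 10, with 6, 4 and 4 listed in saline and 3, 7 and 6 in morphine. Its intron 21 of 29, of 2650 nucleotides (chr13:49057701-49060350), was listed in all libraries except saline 1. A form of 2653 nucleotides with a 3′ splice site 3 bases further downstream was listed in saline 3, morphine 2 and morphine 3. 4933427D14Rik (chr11:72153929-72207459) held 7, with 5, 2 and 0 listed in saline and 7, 4 and 4 in morphine. Cacna1b, the pore of N-type calcium channels (chr2:24603887-24763152), held 7, with 3, 1 and 3 in saline and 6, 3 and 2 in morphine. Of its 7 introns, 5 were listed in 2 libraries, and intron 11 of 46, of 3514 nucleotides, was listed in all libraries except morphine 3. In all 5 genes the ranges of the groups overlapped.

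**Figure D5:**
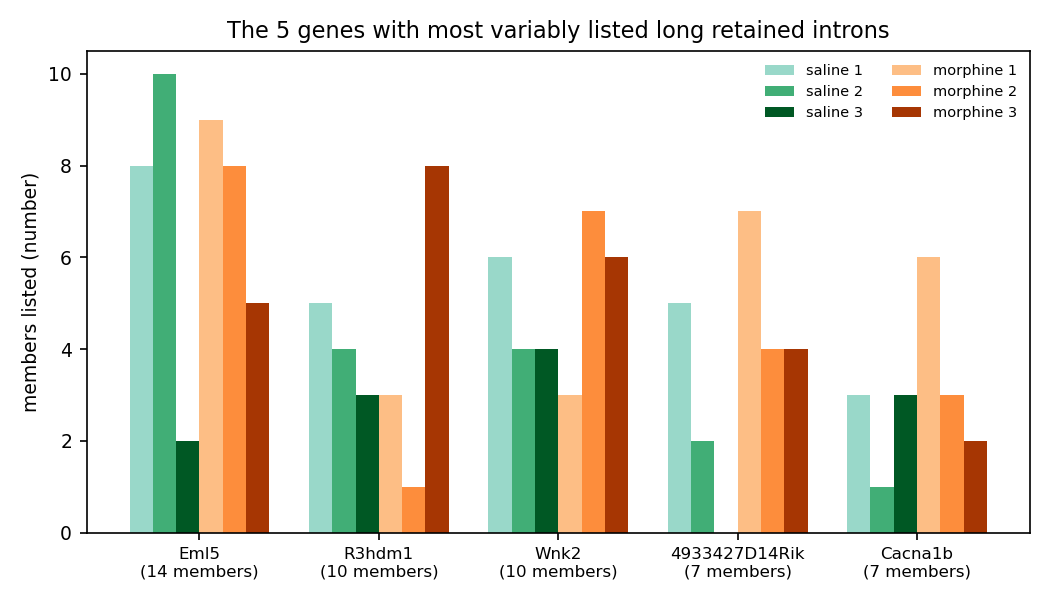
Number of long variable introns listed in each library (y axis, count) for the 5 genes with most of them, saline libraries in green and morphine libraries in orange. The bars of the groups overlap in every gene, and in Eml5 they run from 2 to 10 within saline alone.

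By gene function, the share of listed genes with a long variable intron, 5.65% over all listed genes, was 26.0% for chromatin regulators, 23.8% for ion channels, 23.5% for glutamate receptors and scaffolds and 14.9% for splicing factors. It was 12.5% for synaptic adhesion and release, 8.70% for cytoskeleton and axon initial segment, 8.0% for plasticity kinases, 4.55% for opioid and dopamine signalling and 0.0% for the GABA synapse. To allow for genes with many long introns, each list is also given as its annotated long variable introns over all its annotated introns above the length limit. By this measure, 1.304% over all listed genes, the same 4 lists lay above and the other 5 below. Introns of the same gene were counted separately, and the lists were chosen with earlier results of these data known. These are counts without a test.

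Among genes of ion channels, 10 of 42 held 28 long variable introns, and the 24 annotated ones made up 3.31% of their long introns. Introns of the same gene were counted separately, and Cacna1b alone held 7 of the 28. More morphine libraries listed 6 of the 28, more saline libraries 6, and 16 were equal. Cacna1c, the pore of an L-type calcium channel, held an intron of 4487 nucleotides that matched no annotated intron and was listed in all libraries except saline 3. Its intron of 5802 nucleotides (intron 6 of 48) was listed in saline 1, saline 2, morphine 2 and morphine 3. Among glutamate receptors and scaffolds, 8 of 34 genes held 12, and the 11 annotated ones made up 2.24% of their long introns. Of the 12, 2 were listed in more morphine, 6 in more saline and 4 in equal numbers of libraries. Several were introns of Gria4 and were counted separately. Over all long variable introns the shares were 34.5%, 23.5% and 41.9% in that order. No group difference is read from the counts of this or any other gene list. Dlgap2, a scaffold of the postsynaptic density, held one of 8050 nucleotides that was listed in saline 1, saline 3, morphine 1 and morphine 3.

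Splicing factors held 14 in 10 of 67 genes, or 2.82% of their long introns, with 4, 3 and 7 in the same order. U2af1, the factor that recognises the AG of the 3′ splice site, held an intron of 3266 nucleotides (intron 2 of 7, chr17:31651713-31654978) listed in all libraries except morphine 1, and in all 6 in any form. Rbm39, a splicing factor related to U2AF, held one of 4313 nucleotides listed in saline 1, saline 3, morphine 1 and morphine 2, and in all 6 in any form. Hnrnpd, an hnRNP that binds AU-rich elements, held one of 9146 nucleotides listed in saline 2, morphine 1 and morphine 3. Chromatin regulators held 28 in 13 of 50 genes, of which the 25 annotated ones made up 4.05% of their long introns, with 7, 8 and 13. Kdm6a, an H3K27 demethylase, held one of 3557 nucleotides listed in saline 1, saline 2, morphine 1 and morphine 3. Kmt2e, an MLL family gene, held a pair, of 2832 and 2478 nucleotides, and both were listed in saline 2 and all 3 morphine libraries. In any form the intron of 2832 nucleotides was found in 5 libraries and that of 2478 in all 6.

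Genes of opioid and dopamine signalling held 1 long variable intron in 22 genes, or 0.752% of their long introns. It was intron 17 of 18 of Rgs9 (8295 nucleotides, chr11:109227605-109235899), a regulator of G-protein signalling of the striatum, listed in saline 1, morphine 1 and morphine 2. Genes of the GABA synapse held none in 20 genes with 169 annotated long introns. Synaptic adhesion and release genes held 4 in 4 of 32 genes, of which the 2 annotated ones made up 0.326% of their long introns, among them Syt7, a calcium sensor of release (3466 nucleotides, 4 libraries). Plasticity kinases held 2 in 25 listed genes (Ntrk3, 14921 nucleotides in 4 libraries, and Camk2a, 4247 nucleotides in 2 libraries), or 0.725%. Cytoskeleton and axon initial segment genes held 3 in 2 of 23 genes (Ank3 and Nfasc), or 0.698%. Of the 18 noncoding host genes, 1 was listed and it held none.

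Markers of the cell types in the tissue were listed in nearly equal numbers in all libraries. Every library listed events of all 13 medium spiny neuron, 10 astrocyte, 10 microglia and 11 ependymal markers, of 11 or 12 of 12 oligodendrocyte markers and of 9 of 10 endothelial markers. Long variable introns were held by 1 medium spiny neuron marker (Rgs9), 1 endothelial marker (Slco1a4, a transporter) and 1 ependymal marker (Ccdc39, a cilia protein, with 2), and by no astrocyte, oligodendrocyte or microglia marker. Lists hold no levels, so shares of cell types could not be compared between the groups, and their part in the listings was not tested.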

How the data were processed

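Total RNA of the nucleus accumbens was sequenced in 3 saline and 3 morphine libraries, grouped by the treatment label. Replicate numbers follow accession order and are names only. Per the study's methods, the authors made strand-specific libraries, mapped reads with HISAT2 and assembled transcripts with StringTie. The deposited event lists, in the layout of ASprofile, give event type, gene, position and strand. Their value column holds 0 or negative whole numbers and was not used as a level. The genome build is not given in the sources used here, and positions were checked against GENCODE M21 (GRCm38), which holds 92.1% of the long variable introns exactly. The deposited lncRNA table gave the authors' counts and FPKM values, used only for relative depth (values with at least 10 counts). Its fold changes, adjusted p-values and calls are the authors' own comparison and were not used. Unused columns of per-sample values numbered 0.

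An intron is given from its first to its last base, counted from 1, and duplicate entries were merged by gene, strand and both ends. Library counts were compared by two-sided exact permutation of 3 against 3 libraries, and features of long against short introns by exact sign flips over the 6 per-library differences, with Benjamini-Hochberg adjustment and a threshold of 0.05. The same test was planned within genes, but its result is not read because the libraries share their introns and the rule used that contrast. Scripts were tested on simulated data. Checks of GC content and splice site scores across introns were void, because the reference transcripts held the sequence of 4.11% of the long variable introns, under the 80% required. The number per 100 retained introns, position in the gene, coding status, transcript ends inside introns and retention in any form were added after seeing the data.

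The long variable introns and the gene lists were chosen with earlier results of these data known. Named were the 10 longest introns of each group-only set, the 5 longest introns, the 5 genes with most, up to 3 introns per gene list and the 3 on each side of the length limit. Genes shown by sequence, Ift80 and Eml5 among the group-only introns, and the further genes in the plot of group-only introns were chosen after their values were seen. Alternatives changed the length minimum, the annotation and strand conditions, means or medians and the comparison introns, or left out each library. Tables were handled with pandas 2.3.3 and numpy 2.4.6 under Python 3.11.15, exact tests were enumerated in full and checked with scipy 1.17.1, and plots were drawn with matplotlib 3.10.9.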

Additional observations from a re-analysis of the deposited data

How the results depend on the processing

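The number of long variable introns was higher in morphine under every alternative that kept it a number per library, and reversed to -0.668 per 100 single retained introns of the library, an alternative chosen after seeing the data; none passed the threshold. Leaving out 1 library gave differences of 36.3 to 167.8 introns. The difference in the share of long introns changed sign, to -0.067 percentage points, when only annotated introns were counted, and ran from -1.04 to 0.886 with 1 library left out; it lay within the spread between libraries throughout. Introns listed in one group only numbered 38 for morphine (1.64%) and 16 for saline (0.689%) at a length minimum of 1000, and 10 for morphine (1.299%) and 6 for saline (0.779%) at 3000. With 1 library left out, fewer libraries had to match and the counts rose to between 29 and 105 for morphine and between 16 and 50 for saline. Over variable retained introns of any length, with all 6 libraries, the shares were 1.63% for morphine and 0.644% for saline. The shares at both length minimums lay near them. With a library left out the matching shares were not computed. No group difference is read from any of these counts.

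Against short variable introns, the difference in median position was 0.43 percentage points at a minimum of 3000 and 0.36 with means in place of medians, and the difference in the share at an annotated intron was -1.91 on the annotated strand only (exact sign-flip permutation, adjusted p = 0.0729); none of these passed, and the cause was not tested. The p-values of this comparison with 6 libraries are too small, because the libraries share introns, and no feature is called different from them. With 5 libraries the smallest possible p is 0.0625, above the threshold, so signs and ranges are given. Against short introns these ranges were 1.27 to 1.78 for position, -2.36 to -1.48 for annotated introns, -2.33 to -1.34 for coding introns, -26.0 to -25.3 for annotation cover, -2.26 to -1.80 for first introns, -3.19 to -2.83 for last introns and 0.0191 to 0.164 for the opposite strand. Within genes they were -1679.8 to -1640.3 nucleotides for length, 16.8 to 17.3 percentage points for coding introns, 4.17 to 4.39 for annotation cover, -20.66 to -20.04 for first introns, -10.9 to -10.6 for last introns and 10.49 to 10.96 for position. Transcript ends inside the introns gave -4.73 to -4.19 for start sites and -2.95 to -2.79 for termination sites. The set of introns stayed the same when a library was left out, and the libraries share introns. Narrow ranges therefore do not measure the spread between animals. No paired analysis was possible because the labels give no replicate numbers that the groups share. Listings carry no read support, so depth limits them to what was assembled in each library.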
